A study of Mus musculus with 70 samples.

Results

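Collagens are the main structural proteins of the extracellular matrix, and each is a trimer of alpha chains that fold into a triple helix. Of the 44 collagen alpha chain symbols in all 3 deposited count tables, out of 23732 symbols in common, 34 reached a mean of 0.5 CPM (counts scaled to the total count of a library) in at least 1 group and were kept. They were 9 fibrillar chains (Col1a1, Col1a2, Col3a1, Col5a1, Col5a2, Col5a3, Col11a2, Col24a1 and Col27a1), 8 basement membrane chains (Col4a1 to Col4a6, Col15a1 and Col18a1) and 17 other chains. The other chains were Col9a3, Col12a1, Col14a1, Col16a1 and Col20a1, which bind to fibril surfaces through interrupted helices, Col6a1, Col6a2, Col6a3, Col6a5 and Col6a6 of type VI, the short chains Col8a1 and Col8a2, the membrane-spanning Col13a1, Col17a1, Col23a1 and Col25a1, and Col7a1 of the anchoring fibrils of skin. Just inside the threshold were Col8a2, with 0.579 CPM in its highest group, and Col17a1, with 0.643, and just outside it were Col28a1, with 0.347, and Col22a1, with 0.213. Col11a1, Col6a4, Col2a1, Col19a1, Col9a2, Col26a1, Col10a1 and Col9a1 reached at most 0.164 CPM in any group and were left out.

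Fibrillar collagens carry the tensile load of tissue, and in the liver types I and III make up most of the scar laid down in fibrosis, mainly by hepatic stellate cells that have turned into myofibroblasts. Type IV collagen forms the network of basement membranes, to which types XV and XVIII are attached, while type VI builds beaded microfibrils. Resident macrophages of the liver, the Kupffer cells, sit in the sinusoids beside endothelial and stellate cells and are not known as a main source of interstitial collagen.

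The data are 70 RNA-seq libraries of mice fed a control diet or a diet that induces nonalcoholic steatohepatitis (NASH) for 24 weeks, from 32 total liver lysates and 38 sorts of resident liver macrophages, gated as F4/80high CD11blow. The control mice, called WT here, have the genotype label Lyz2.Cre+/+ (the only label that gives the genotype of the liver NASH libraries of this group), so they carry the recombinase that is expressed in myeloid cells, and OpnKI Mye mice, called KI here, carry by their name a knock-in of osteopontin in myeloid cells. Males and females of both genotypes and diets make 16 groups of 4 libraries, except for 5 in each male and 6 in each female macrophage NASH group. The ages of the animals are not given in the labels used here, nor is whether libraries of a group came from separate animals, so that p-values measure only the spread between these libraries. The study's title names a protective role of macrophage osteopontin, and each contrast of diet, genotype, sex and tissue was read here for the collagen chains.

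Total counts were 11245097 to 29966174 per library in liver and 16512356 to 26244679 in macrophages. Male liver WT control replicates 3 and 4 differed by less than counting noise over genes with a summed count of 20 to 1000 (mean chi-square per gene 0.06711 and 0.1255 in the 2 ranges compared), though not over the 4030 genes with more counts (405.2), and their totals were 11245097 and 18765036. They were counted as 1 library, called replicate 3, which left 3 libraries in that group. In that library, and in macrophage male WT control replicate 4, the sex-linked genes went against the sex label. Spp1, the osteopontin gene, stood at 0 to 0.516 CPM over the library total in WT control macrophages and at 1.43 to 11.3 in KI control macrophages, without overlap. On the NASH diet the ranges were 1.15 to 55.9 CPM in WT and 2.17 to 199 CPM in KI macrophages, which overlap. In total liver Spp1 reached 35.1 CPM at most in WT control, 40.8 in KI control and 65.8 in KI NASH, and ranged from 53.4 to 698 CPM in WT NASH. Markers fixed for Kupffer cells summed to 246 to 745 CPM in liver and 12500 to 36800 CPM in the sorted fraction, and markers of sinusoidal endothelial cells to 223 to 604 and 548 to 3360 CPM. Hepatocyte markers summed to 85400 to 201000 CPM in liver and 26.4 to 2780 CPM in the sorted fraction, where they were not at 0. Markers of stellate cells in general summed to 433 to 984 CPM in liver and 181 to 530 CPM in the sorted fraction. Those of activated stellate cells or myofibroblasts summed to 29 to 209 and 4.51 to 33.3 CPM. The part of these cells in the collagen values of the sorted fraction was not tested.

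Promoter sequences are shown for 2 interstitial chains that rose together in male WT liver on the NASH diet, Col1a2 and Col3a1, and for 2 minor fibrillar chains that did not pass the test there, Col27a1 and Col5a3. They are the 250 bases before the annotated start of each gene (RefSeq, build GRCm38.p6), cut for Col1a2 to the 123 bases that hold no annotated exon, 5′ to 3′ on the gene's strand. The GENCODE gene spans given below start further upstream for Col1a2 and Col27a1, so their windows lie inside the genes by that annotation. Capitals mark every GGGCGG, the core of the GC box (CCGCCC on the other strand), every CCAAT and every TATAAA.
Col1a2, chr6:4505370-4505492, plus strand: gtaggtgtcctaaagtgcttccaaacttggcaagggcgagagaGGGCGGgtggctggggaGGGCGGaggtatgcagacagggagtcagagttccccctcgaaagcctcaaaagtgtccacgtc
Col3a1, chr1:45311288-45311537, plus strand: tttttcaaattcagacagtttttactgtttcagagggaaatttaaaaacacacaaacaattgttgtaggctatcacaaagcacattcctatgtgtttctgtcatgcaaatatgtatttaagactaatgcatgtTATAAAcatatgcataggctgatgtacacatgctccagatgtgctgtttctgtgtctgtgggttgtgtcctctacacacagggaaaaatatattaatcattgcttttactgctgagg
Col27a1, chr4:63215162-63215411, plus strand: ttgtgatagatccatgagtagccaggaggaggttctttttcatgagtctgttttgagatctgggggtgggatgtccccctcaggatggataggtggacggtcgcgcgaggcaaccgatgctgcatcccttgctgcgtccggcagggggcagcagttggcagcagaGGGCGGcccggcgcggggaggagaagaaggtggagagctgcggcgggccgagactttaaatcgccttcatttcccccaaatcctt
Col5a3, chr9:20815068-20815317, minus strand: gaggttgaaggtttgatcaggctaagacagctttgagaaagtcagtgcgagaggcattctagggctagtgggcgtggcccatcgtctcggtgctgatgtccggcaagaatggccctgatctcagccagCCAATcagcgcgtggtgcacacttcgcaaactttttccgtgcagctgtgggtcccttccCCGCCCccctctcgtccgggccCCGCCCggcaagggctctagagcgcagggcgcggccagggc
Searched on both strands in the 250 bases before the start, GGGCGG was found in 63.3% of the 30 windows of the 28 kept chains with an entry and in 32.7% of all 32851 promoters. CCAAT was found in 33.3% against 33.8%, and TATAAA in 13.3% against 12.4%. These matches describe the letters of the windows only. Col1a1, Col14a1, Col5a2, Col12a1, Col9a3 and Col4a3 had no entry.

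Several of these genes are neighbours in the GENCODE vM21 annotation of GRCm38. Col4a1 (chr8:11198423-11312826, minus strand) and Col4a2 (chr8:11312805-11449287, plus strand) lie head to head with starts 21 bases apart. Col4a3 and Col4a4 on chromosome 1 start 72 bases apart, and Col4a5 and Col4a6 on chromosome X 1309 bases apart, again on opposite strands. Col3a1 (chr1:45311538-45349706, plus strand) and Col5a2 (chr1:45374321-45503282, minus strand) converge with 24614 bases between them. Col1a1 (chr11:94936224-94953042) and Col1a2 (chr6:4504814-4541544), which encode the chains of type I collagen, lie on different chromosomes, as do Col27a1 (chr4:63214004-63334991), Col5a3 (chr9:20770050-20815067) and Col18a1 (chr10:77052178-77166548). The exons of Col9a3 share 6.07% of their length with Tcfl5 on the opposite strand and those of Col4a3 5.65% with C430014B12Rik. Since no source used here gives the strand setting of the counting, reads of these pairs may be mixed.

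The chains differed widely in abundance, which was compared per kilobase of exon (CPM per kb). In male WT control liver Col18a1, the basement membrane chain whose C-terminal fragment is endostatin and which hepatocytes are known to make, led with 273 CPM per kb. It was followed by Col14a1 (9.72), Col5a3 (8.66), Col27a1 (6.45), Col4a1 (6.27) and Col3a1 (5.46), while Col1a2 stood at 3.3 and Col1a1 at 1.64. In male WT NASH liver Col18a1 still led with 182 CPM per kb, and the next were Col3a1 (53.6), Col1a2 (21.7), Col4a1 (21.3) and Col1a1 (20.6). Female WT control liver had Col18a1 at 215, Col14a1 at 11.2 and Col27a1 at 6.11 CPM per kb. In male WT control macrophages the order was another one: Col11a2, a chain of type XI collagen best known from cartilage, led with 8.39 CPM per kb, before Col4a1 (3.61), Col14a1 (3.05) and Col27a1 (2.9). Female WT control macrophages had Col11a2 at 6.98, Col14a1 at 4.72, Col27a1 at 3.83 and Col4a1 at 3.55 CPM per kb.

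On the control diet, most collagen chains were far lower in sorted macrophages than in total liver, and a few were higher. Liver and macrophage RNA were also made with different kits and deposited in separate tables, which cannot be told apart from tissue. Of 33 chains tested in males, 26 were lower and 4 higher in macrophages, where 79.5% of all genes tested were called (40.3% lower and 39.2% higher). In females 26 of 31 were lower and 3 higher, against 82.8% of all genes (42.9% lower and 39.9% higher). The median log2 difference in males was -3.35 over the chains and -0.05 over all genes. By class, 8 of 9 fibrillar, 6 of 7 basement membrane and 12 of 17 other chains were lower in male macrophages. Some chains, among them Col24a1, Col25a1, Col6a6, Col8a1 and Col8a2, reached 0.5 CPM only in liver groups and were kept through them. That such chains were lower in macrophages follows in part from this filter, which also bears on the counts, classes and median. Levels in the following comparison are TMM-scaled over both tissues of a sex, listed by replicate number.

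**Figure D1:**
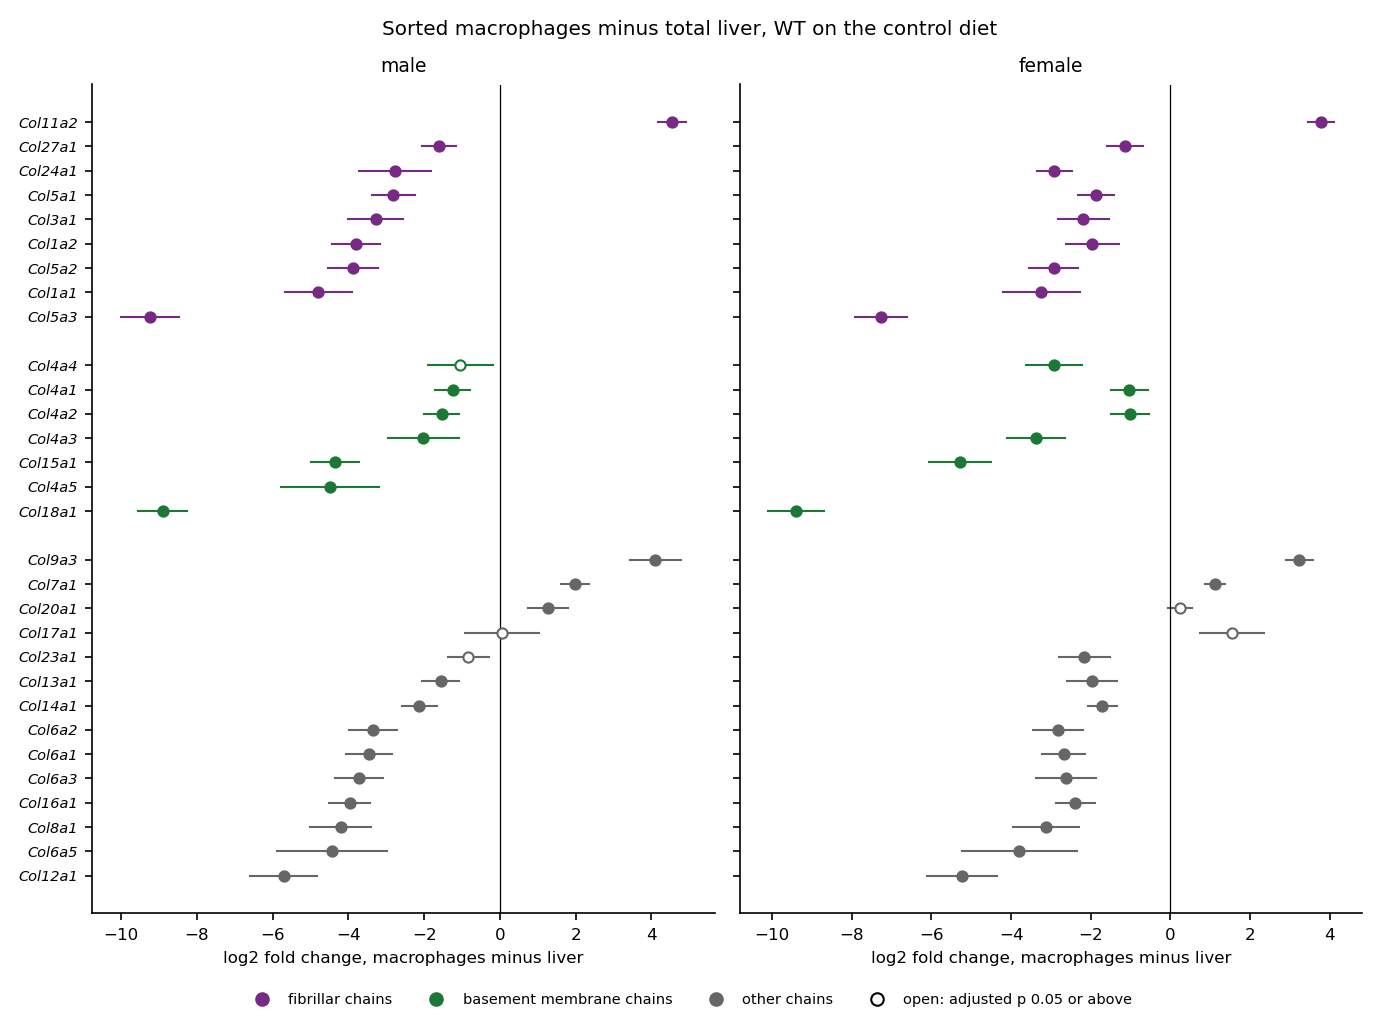
Difference between sorted macrophages and total liver of WT mice on the control diet for each collagen chain, in males (left) and females (right), as log2 fold change with its standard error; filled points passed an adjusted p of 0.05, and colours mark fibrillar, basement membrane and other chains. Chains with a macrophage mean under 0.04 CPM are not drawn (Col25a1, Col6a6 and Col8a2 in males, Col4a5 and Col6a6 in females). Col11a2 lies at 4.55 in males and 3.78 in females, and Col5a3 and Col18a1 lie farthest to the left.

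Col11a2 stood out among the chains that were higher in macrophages, and its libraries are shown as a choice made after its values were seen. In males it stood at 45, 51.4, 43 and 41 CPM in the macrophage libraries and 1.65, 2.33 and 1.72 CPM in the liver libraries, and in females at 33.6, 41.6, 35 and 36.5 CPM in the macrophage libraries and 3.11, 3.51, 1.56 and 2.52 CPM in the liver libraries. The tissues did not overlap in either sex, with 45.1 ± 4.49 (SD, n = 4) against 1.9 ± 0.374 CPM (n = 3) in males (log2 fold change 4.55, SE 0.37, adjusted p = 3.3e-12) and 36.7 ± 3.5 against 2.67 ± 0.848 CPM (n = 4 each) in females (log2 fold change 3.78, SE 0.32, adjusted p = 1.8e-12). Col9a3, a chain of the fibril-associated type IX, was also higher in macrophages of males (3.68 against 0.199 CPM, log2 fold change 4.10, SE 0.67, adjusted p = 2.8e-06) and females (2.53 against 0.265 CPM, log2 fold change 3.23, SE 0.34, adjusted p = 4.2e-10). Without male liver WT control replicate 2 the male difference of Col9a3 was 4.74. Col7a1 was higher by 1.98 in males (4.36 against 1.08 CPM) and by 1.12 in females (2.69 against 1.24 CPM) on the log2 scale. Col20a1, another chain that binds to fibrils, stood at 10.7 against 4.37 CPM in males (log2 fold change 1.28, SE 0.53, adjusted p = 0.029) and at 8.01 against 6.8 CPM in females, where it did not pass the test (adjusted p = 0.46). The male call of Col20a1 was lost without liver WT control replicate 1 (0.86) or 2 (1.17) or macrophage WT control replicate 4 (1.19). The difference was 1.93 without liver WT control replicate 3 and 1.87 without both libraries whose sex genes go against the label.

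Among chains with reads in every macrophage library, the largest differences were those of Col18a1 and of Col5a3, a minor chain of type V collagen. Col18a1 in males stood at 1.82, 6.19, 1.42 and 6.13 CPM in the macrophage libraries and 1920, 1770 and 1890 CPM in the liver libraries, and in females at 2.84, 2.65, 0.924 and 2.09 CPM in the macrophage libraries and 1450, 1460, 1450 and 1400 CPM in the liver libraries. Every liver library lay far above every macrophage library, with log2 differences of -8.90 (SE 0.65) in males and -9.40 (SE 0.70) in females. Col5a3 in males stood at 0.0959, 0.0825, 0.0406 and 0.192 CPM in the macrophage libraries and 85.9, 93.6 and 12.2 CPM in the liver libraries, and in females at 0.0335, 0.153, 0.192 and 0.126 CPM in the macrophage libraries and 22.4, 15.3, 23.5 and 16.9 CPM in the liver libraries. Here too the tissues did not overlap, and the log2 difference was -9.24 (SE 0.77) in males and -7.26 (SE 0.65) in females, with -10.17 in males once both libraries with contradicting sex genes were left out. The low male liver value of Col5a3 belongs to the library whose sex genes contradict its label.

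Col1a1 in males stood at 0.336, 0.454, 0.162 and 0.766 CPM in the macrophage libraries and 12.7, 8.91 and 13.9 CPM in the liver libraries, a log2 difference of -4.79 (SE 0.89). The type IV chains of the ordinary basement membrane differed less. Col4a1 in males stood at 27.8, 11.4, 23 and 22.5 CPM in the macrophage libraries and 45.9, 44.4 and 61 CPM in the liver libraries, and Col4a2 at 18.6, 7.63, 13.9 and 12.6 CPM in the macrophage libraries and 37.2, 32.8 and 45.2 CPM in the liver libraries. All macrophage libraries lay below the liver libraries, with differences of -1.25 for Col4a1 (adjusted p = 0.012) and -1.54 for Col4a2 (adjusted p = 0.003). In females the differences were -1.03 for Col4a1 (adjusted p = 0.044) and -1.02 for Col4a2 (adjusted p = 0.049), close to the threshold, and the groups of Col4a2 overlapped. In males the calls of Col4a1 (-1.12) and Col4a3 (-2.01) were lost without both libraries with contradicting sex genes, and in females that of Col4a2 was lost in 29 and that of Col4a1 in 7 of the refits that each left out 1 library. Macrophages also held few reads of the fibril-associated chain Col12a1, with 0, 0.0412, 0.0406 and 0.0958 CPM in the macrophage libraries and 0.973, 4.32 and 2.5 CPM in the liver libraries in males, and of Col25a1 and Col6a6, whose macrophage means in males were 0.0359 and 0.0102 CPM against 1.08 and 1.29 CPM in liver, about the level of single reads. In females Col4a5 and Col6a6 had no read in the 4 macrophage libraries and means of 2.78 and 0.746 CPM in liver. Col17a1 in both sexes and Col4a4 and Col23a1 in males did not pass the test. Single control libraries moved several of these differences: Col12a1 in females was -6.35 without macrophage replicate 2 (-5.23 with it), and Col5a2 was -2.89 in males without liver replicate 3 (-3.88 with it) and -2.13 in females without liver replicate 2 (-2.93 with it). The call of Col6a5 was lost in males without liver replicate 1 (-3.02, from -4.43) and in females without liver replicate 2 (-1.70, from -3.79).

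Genes that modify, fold, export or trim collagen (31 genes fixed as a list, 27 tested) were lower in macrophages for 17 and higher for 7 in males, and lower for 17 and higher for 6 in females, where 79.5% (males) and 82.8% (females) of all genes were called. The largest falls in males were those of Bmp1, the protease that removes the C-propeptide (-8.37), Fkbp10, a chaperone (-3.84), and Adamts2, the N-propeptidase (-3.61). Higher in macrophages were Pcolce2, an enhancer of propeptide removal (5.74), P4ha1, a prolyl hydroxylase (4.20), and Plod1, a lysyl hydroxylase (2.52). Among the collagen receptors (10 genes, 9 tested), 3 were higher and 6 lower in male macrophages, led by Lair1, an inhibitory receptor of leukocytes (6.16), and by Mrc2, which takes collagen up (-4.36). Itga11, an integrin of fibroblasts, had no read in the 4 male macrophage libraries and a mean of 0.15 CPM in liver, with overlap.

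In male WT liver the interstitial chains rose on the NASH diet. Col17a1 and Col4a6 had too few counts to be tested. Of the 32 chains tested, 14 rose and 2 fell, against 21% of all genes tested (11.3% higher and 9.74% lower). Col1a1, Col3a1 and Col1a2 rose most, followed by type VI chains, Col5a2, Col8a1 and the type IV chains. The median log2 fold change was 1.23 over the chains and -0.01 over all genes. By class, 5 of 9 fibrillar chains rose and none fell, 3 of 7 basement membrane chains rose and 1 fell, and 6 of 16 other chains rose and 1 fell, with medians of 1.34, 0.87 and 1.23. In bulk tissue, fewer cells of a type and less RNA per cell cannot be told apart.

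The genotype contrast on the NASH diet shares the WT NASH libraries with this diet contrast. There, 15 of 32 chains were lower and 3 higher in KI than in WT liver, against 37% of all genes tested (17.4% lower and 19.6% higher). The median log2 difference was -0.87 over the chains and -0.02 over all genes. Of the fibrillar chains 5 of 9 were lower and 2 higher, of the basement membrane chains 3 of 7 lower and 1 higher, and of the other chains 7 of 16 lower and none higher. Levels below are TMM-scaled CPM within the liver of 1 sex, again listed by replicate number.

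**Figure D2:**
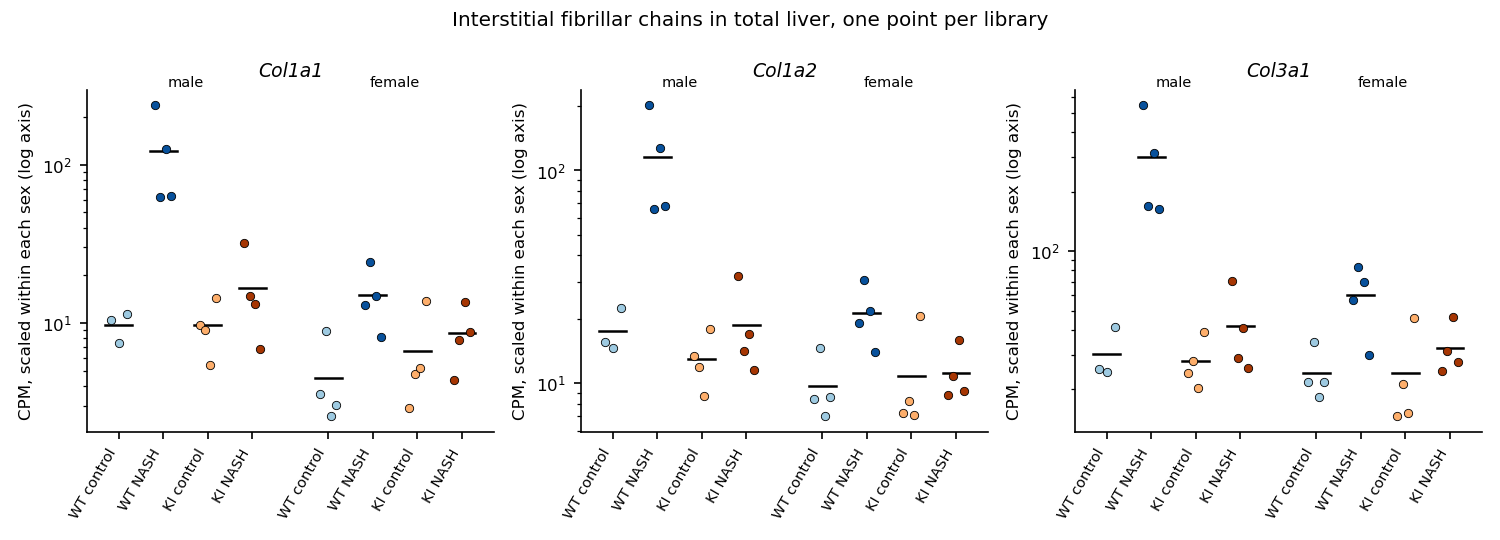
Levels of Col1a1, Col1a2 and Col3a1 in total liver of males and females as CPM on a log axis; each point is 1 library, the bar is the group mean, and colours mark the 4 groups of genotype and diet. In males all 4 WT NASH libraries lie above every other library for all 3 genes.

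Type I collagen, the most abundant protein of scar tissue, is built from the chains of Col1a1 and Col1a2. Col1a1 stood at 10.5, 7.45 and 11.3 CPM in WT control, 237, 62.2, 126 and 63.7 in WT NASH, 9.67, 9.07, 5.41 and 14.4 in KI control and 32.2, 14.7, 13.1 and 6.82 in KI NASH. All WT NASH libraries lay above every other library, while KI NASH overlapped the controls. The diet effect in WT was a log2 fold change of 3.65 (SE 0.59, adjusted p = 0.0016), and KI minus WT on the NASH diet a log2 fold change of -2.87 (SE 0.50, adjusted p = 8e-04). Col1a2 stood at 15.6, 14.7 and 22.6 CPM in WT control, 202, 65.6, 128 and 68.1 in WT NASH, 13.5, 12, 8.74 and 18.1 in KI control and 32.1, 14.2, 17 and 11.5 in KI NASH. It followed the same order, with WT NASH apart from all other groups. Its values were 2.72 for the diet in WT (SE 0.45, adjusted p = 0.0018) and -2.63 for the genotype on the NASH diet (SE 0.39, adjusted p = 0.00032). The ratio of Col1a1 to Col1a2 per kb was 0.505 ± 0.0875 (SD, n = 3) in WT control and 0.911 ± 0.0999 (n = 4) in WT NASH, and its ranges of 0.451 to 0.606 and 0.844 to 1.06 did not overlap. For KI no ratio is given. Its mean levels of Col1a1 and Col1a2 were 1.63 and 2.44 CPM per kb in KI control and 2.82 and 3.49 in KI NASH.

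Type III collagen, a homotrimer of the Col3a1 chain, forms the thinner reticular fibres. Col3a1 stood at 25.3, 24.5 and 41.2 CPM in WT control, 545, 169, 314 and 164 in WT NASH, 24.2, 27.9, 20.3 and 39.1 in KI control and 71, 29, 41 and 25.6 in KI NASH. The WT NASH libraries again lay above all others, with replicate 1 highest. The diet effect in WT was a log2 fold change of 3.29 (SE 0.48, adjusted p = 0.001), the genotype effect on the NASH diet a log2 fold change of -2.84 (SE 0.42, adjusted p = 3e-04). The calls of Col1a1, Col1a2 and Col3a1 in both contrasts held in each refit that left out 1 library.

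Type V collagen nucleates type I fibrils, and its chains did not behave alike. Col5a1 stood at 11, 11.5 and 18.2 CPM in WT control, 54.3, 21.4, 39.2 and 23.1 in WT NASH, 9.51, 11.7, 10.9 and 14.2 in KI control and 18, 11.7, 14.6 and 12.4 in KI NASH. WT NASH did not overlap WT control or KI NASH, and the gene rose with the diet in WT (log2 fold change 1.34, SE 0.30, adjusted p = 0.0088) and was lower in KI NASH (log2 fold change -1.28, SE 0.27, adjusted p = 0.0028). Without WT control replicate 2 the diet call was lost (1.23). Col5a2 stood at 3.85, 2.58 and 12.5 CPM in WT control, 49.8, 13.9, 20 and 12.1 in WT NASH, 4.59, 1.82, 1.36 and 5.32 in KI control and 5.75, 3.35, 4.43 and 3.2 in KI NASH. WT control replicate 3, the library with contradicting sex genes, reached the lowest WT NASH library, while KI NASH stayed below all of them. Its diet effect in WT (log2 fold change 1.92, SE 0.62, adjusted p = 0.04) was not called without KI NASH replicate 3 (1.92), WT control replicate 1 (1.67), WT control replicate 2 (1.53), WT NASH replicate 1 (1.25) or WT NASH replicate 3 (2.00), and it was 2.90 without WT control replicate 3. Its genotype effect on the NASH diet (log2 fold change -2.51, SE 0.57, adjusted p = 0.0039) was -1.87 without WT NASH replicate 1. Col5a3 stood at 70.8, 78.2 and 9.88 CPM in WT control, 49.2, 60.2, 52.6 and 48.5 in WT NASH, 44.9, 89.3, 86.6 and 71 in KI control and 55.2, 33.8, 101 and 90.7 in KI NASH. Its groups overlapped, and neither the diet (-0.01) nor the genotype on the NASH diet passed the test. In WT the diets overlapped only through control replicate 3, the library with contradicting sex genes. The other WT controls (70.8 and 78.2 CPM) lay above every WT NASH library, so the diet value of -0.01 rests on that library.

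Among the basement membrane chains, the type IV pair Col4a1 and Col4a2 rose and Col18a1 fell on the diet. Col4a1 stood at 37.9, 37.1 and 49.4 CPM in WT control, 243, 82.3, 139 and 98.1 in WT NASH, 45.2, 45.2, 44.3 and 48.9 in KI control and 70.6, 91.7, 60.3 and 46.6 in KI NASH, and Col4a2 at 30.6, 27.5 and 36.6 CPM in WT control, 154, 51.7, 90.1 and 56.6 in WT NASH, 38.5, 37.4, 44.9 and 51.6 in KI control and 52.1, 41.2, 53.7 and 43.3 in KI NASH. For both genes WT NASH lay above all WT controls, and the highest KI NASH library reached into the WT NASH range. Col4a1 rose by 1.76 (SE 0.32, adjusted p = 0.0029) and Col4a2 by 1.48 (SE 0.30, adjusted p = 0.0055) on the log2 scale with the diet in WT, and the KI minus WT differences on the NASH diet were -1.06 (adjusted p = 0.0092) and -0.89 (adjusted p = 0.019). The genotype call of Col4a2 was lost without KI NASH replicate 2 (-0.83) or WT NASH replicate 1 (-0.48). Col4a1 per kb stood at 1.28 ± 0.0651 times Col4a2 in WT control and 1.57 ± 0.0801 in WT NASH (SD, n = 3 and 4). Col4a5, a minor type IV chain on the X chromosome, stood at 1.04, 0.974 and 1.39 CPM in WT control, 8.29, 1.16, 4.17 and 1.81 in WT NASH, 0.748, 0.421, 0.253 and 0.785 in KI control and 1.5, 0.838, 1.39 and 0.928 in KI NASH. Most of its WT NASH level came from replicates 1 and 3, and the groups overlapped. Its diet call in WT (1.76, adjusted p = 0.044) was lost in 10 refits that left out 1 library, with values of 1.04 to 1.93, and its genotype call on the NASH diet (-1.72, adjusted p = 0.017) was lost without WT NASH replicate 1 (-1.03).

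Col18a1 fell on the diet, as Col13a1 did. It stood at 1580, 1480 and 1530 CPM in WT control, 900, 979, 1120 and 1070 in WT NASH, 1390, 1380, 1540 and 1850 in KI control and 1550, 1220, 1640 and 1360 in KI NASH. All 4 WT NASH libraries lay below every other library. With the diet it fell by 0.59 on the log2 scale in WT (SE 0.14, adjusted p = 0.012), and it was higher in KI than in WT on the NASH diet (log2 fold change 0.50, SE 0.13, adjusted p = 0.0095). Both calls held in each refit that left out 1 library. Col15a1, its relative known from endothelial and muscle basement membranes, stood at 7.62, 9.8 and 20.3 CPM in WT control, 48.2, 12, 19.6 and 12.4 in WT NASH, 8.71, 9.4, 10.1 and 22.3 in KI control and 17.8, 22, 20.7 and 9.7 in KI NASH. WT NASH replicate 1 was highest, the groups overlapped, and Col15a1 passed the test in neither contrast.

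Of the 5 type VI chains, 3 rose on the diet, the 3 that form the main beaded microfibril. Col6a1 stood at 9.46, 11.7 and 18.4 CPM in WT control, 72.3, 32.5, 43.1 and 28.3 in WT NASH, 9.56, 12.2, 10.2 and 22.6 in KI control and 24.9, 9.43, 14.6 and 11.6 in KI NASH, Col6a2 at 8.02, 6.65 and 9.12 CPM in WT control, 74.7, 23.3, 31.7 and 19.5 in WT NASH, 5.71, 6.31, 3.84 and 12.7 in KI control and 17.4, 6.65, 10.7 and 5.2 in KI NASH. For both, WT NASH overlapped neither WT control nor KI NASH. Col6a3, the largest chain of the trimer, stood at 11, 10.7 and 16 CPM in WT control, 99, 22.4, 48.7 and 26.6 in WT NASH, 12.3, 17.3, 12.6 and 24.4 in KI control and 27.2, 15.2, 15.9 and 10.5 in KI NASH. Its WT NASH libraries lay above WT control, while KI NASH replicate 1 exceeded the lowest of them. The diet effects in WT were 1.74, 2.24 and 1.97 (adjusted p = 0.011, 0.011 and 0.012), and the genotype effects on the NASH diet -1.54, -1.90 and -1.52 (adjusted p = 0.0058, 0.0063 and 0.012). The diet call was lost for Col6a1 without WT control replicate 1 (1.55) or WT control replicate 2 (1.65), for Col6a2 without WT control replicate 2 (2.11) and for Col6a3 without WT control replicate 1 (1.88) or WT control replicate 2 (1.86). Without WT NASH replicate 1 the diet effects of Col6a2 and Col6a3 were 1.62 and 1.35 and their genotype effects -1.31 and -0.92, the last of which was not called. Col6a5, a minor type VI chain, stood at 2.17, 0.516 and 0.127 CPM in WT control, 25.6, 8.57, 0.578 and 0.629 in WT NASH, 1.17, 3.09, 0.101 and 0.448 in KI control and 7.66, 4.14, 6.32 and 3.48 in KI NASH. Its libraries ranged widely within WT NASH, and the diet effect of 3.31 did not pass the test (adjusted p = 0.084).

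The fibril-associated chains Col14a1 and Col16a1 and the short chain Col8a1, a component of vascular networks, also rose. Col14a1 stood at 48, 51.6 and 88.7 CPM in WT control, 123, 107, 135 and 109 in WT NASH, 57.5, 52.6, 42.5 and 59.9 in KI control and 80.7, 50.6, 72.5 and 58.5 in KI NASH. WT NASH lay above every other library, by a smaller factor than type I collagen (diet in WT 0.92, adjusted p = 0.0098, genotype on the NASH diet -0.85, adjusted p = 0.0041). Col8a1 stood at 0.882, 0.802 and 0.57 CPM in WT control, 3.49, 2.65, 2.68 and 1.77 in WT NASH, 0.748, 0.655, 0.657 and 1.29 in KI control and 1.14, 0.524, 1.05 and 0.789 in KI NASH. It rose by 1.81 on the log2 scale with the diet in WT (SE 0.36, adjusted p = 0.0049), differed by -1.58 in KI NASH against WT NASH (adjusted p = 0.0018) and overlapped in neither contrast. Col16a1 stood at 4.73, 4.81 and 9.12 CPM in WT control, 21, 11.2, 14 and 12.2 in WT NASH, 4.27, 3.69, 3.39 and 6.89 in KI control and 6.66, 4.24, 5.75 and 4.41 in KI NASH. Its WT NASH libraries lay above all others, with a diet effect of 1.23 (adjusted p = 0.015) and a genotype effect of -1.47 (adjusted p = 0.0015). The diet calls of both fibril-associated chains were lost without WT control replicate 1 (0.76 for Col14a1, 1.07 for Col16a1) or 2 (0.79 and 1.06). Col13a1, a membrane-spanning chain, fell with the diet in WT (log2 fold change -0.73, SE 0.18, adjusted p = 0.014). Col12a1 was lower in KI on the NASH diet (-1.06, adjusted p = 0.049), a call that was lost in 8 refits without 1 library, with values of -1.06 to -0.78 there.

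The counts of calls depended on a few libraries. The 16 diet calls became 9 without WT control replicate 2, 10 without WT control replicate 1 and 15 without replicate 3, the library with contradicting sex genes, and the 18 genotype calls became 14 without WT NASH replicate 1 and remained 18 in number without that male liver library. WT NASH replicate 1 was the highest library of Col1a1, Col1a2, Col3a1, Col4a1, Col4a2, Col5a1, Col5a2 and the 3 main type VI chains. The summed level of 5 cholangiocyte markers, Spp1 left out, stood at 9.62 to 68.7 CPM in WT NASH and at 4.99 to 7.46 CPM in WT control. The summed markers of activated stellate cells or myofibroblasts stood at 81.2 to 209 CPM in WT NASH, against 34.2 to 50.5 CPM in WT control, 29 to 39.2 CPM in KI control and 33.4 to 54.5 CPM in KI NASH libraries. Of these 7 markers 6 rose with the diet in WT and 7 were lower in KI NASH than in WT NASH. Of the 10 markers of stellate cells in general 2 rose and 4 were lower in the same contrasts. Of the 8 hepatocyte markers 6 fell with the diet in WT, where their sum went from 127000 to 201000 CPM in control to 85500 to 101000 CPM in NASH, and 3 were higher in KI NASH. The part of these cell types in the collagen values was not tested.

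**Figure D3:**
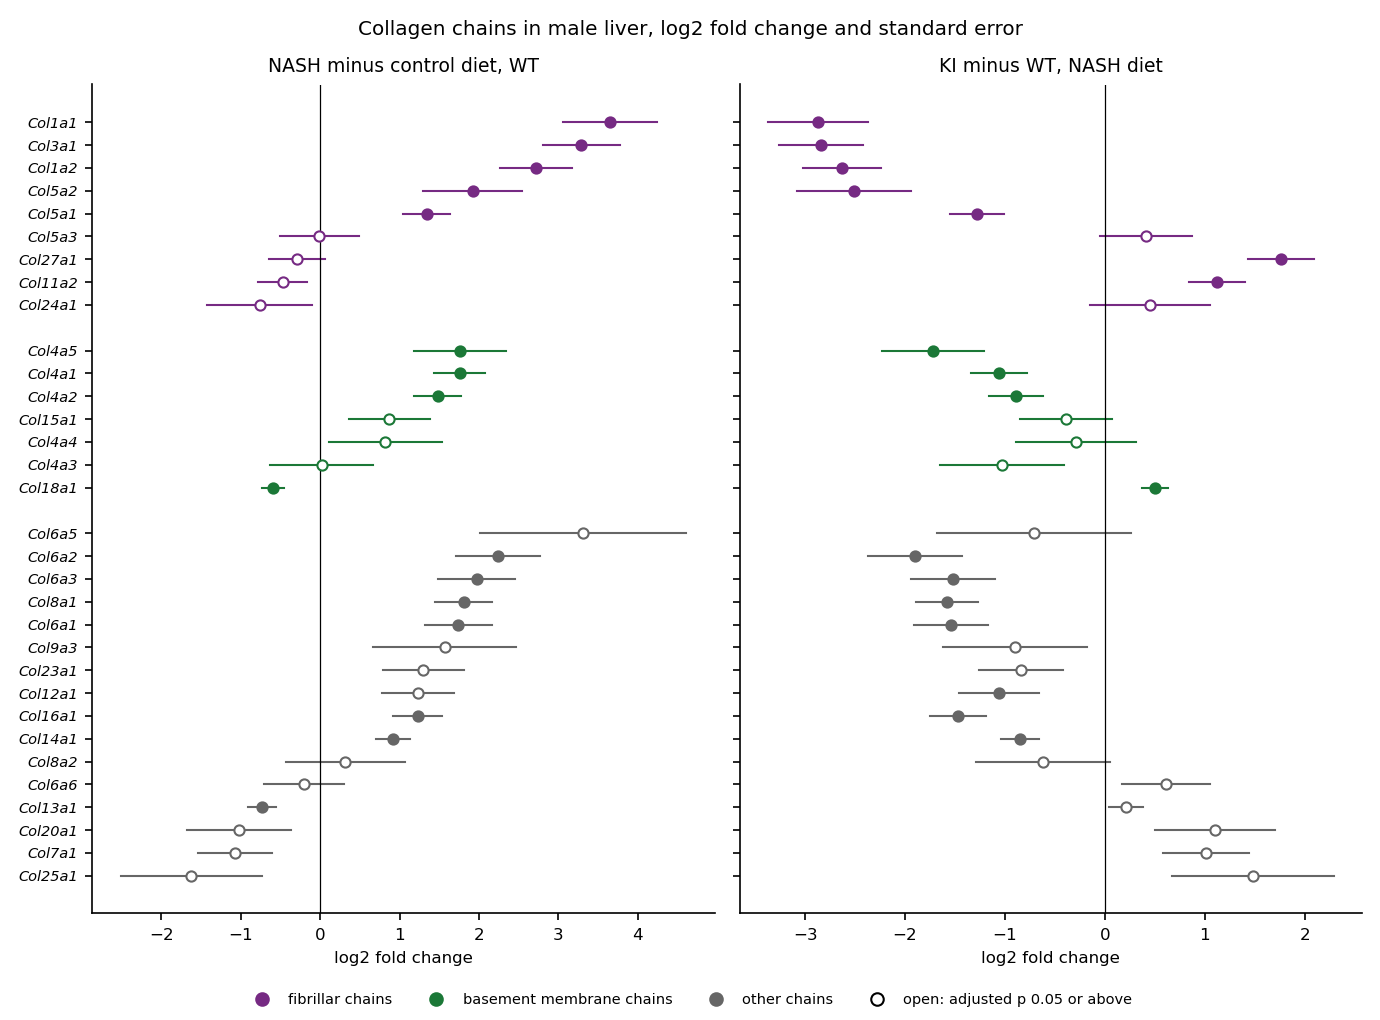
Log2 fold change and standard error of each collagen chain in male liver, for the NASH diet in WT (left) and for KI minus WT on the NASH diet (right), which share the WT NASH libraries; filled points passed an adjusted p of 0.05, and colours mark the 3 classes. Col1a1 lies at 3.65 on the left and at -2.87 on the right, and Col27a1 is the highest point on the right at 1.76.

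Col27a1, a minor fibrillar chain known from cartilage, differed between the genotypes in male liver on both diets. It stood at 61.4, 45.2 and 40.7 CPM in WT control, 23.3, 23, 54.3 and 59.6 in WT NASH, 148, 102, 234 and 239 in KI control and 116, 133, 147 and 148 in KI NASH. No WT library reached the lowest KI library, whatever the diet. KI minus WT was a log2 fold change of 1.88 (SE 0.37, adjusted p = 0.019) on the control diet, the only chain called there among 32 (4.67% of all genes were called). At an unadjusted p under 0.05 stood 1 chain and 3013 of all genes, and DESeq2 called 1 chain. The call on the control diet was lost without KI control replicate 4 (1.72) or WT control replicate 2 (1.82). On the NASH diet the difference was a log2 fold change of 1.76 (SE 0.33, adjusted p = 0.0013), which held in each refit without 1 library. Col11a2 stood at 1.36, 1.95 and 1.39 CPM in WT control, 1.31, 1.16, 1.11 and 0.982 in WT NASH, 1.5, 2.1, 1.82 and 3.31 in KI control and 1.5, 2.57, 3.08 and 2.78 in KI NASH. It was low throughout, WT NASH and KI NASH did not overlap, and it was higher in KI on the NASH diet (log2 fold change 1.12, SE 0.28, adjusted p = 0.0072).

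In KI male liver the diet moved no collagen chain past the threshold. edgeR called 0 of 32 chains, and 0% of all genes tested. The count of chains at an unadjusted p under 0.05 was 0 as well, against 847 of all genes, and DESeq2 called 0 chains. The median log2 fold change was 0.22 over the chains and 0.01 over all genes. The test of the difference between the diet effects of both genotypes (the interaction) called 1 chain, Col3a1 (log2 fold change -2.71, SE 0.60, adjusted p = 0.046), against 1.13% of all genes. This call was lost in 12 of 15 refits that left out 1 library, and 3 chains were called without the library whose sex genes go against the label. Col1a1 (-2.86, adjusted p = 0.075) and Col1a2 (-2.20, adjusted p = 0.079) did not pass, and DESeq2 called 6 chains. At an unadjusted p under 0.05 were 13 chains and 2602 of all genes.

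Genes of collagen synthesis (26 of 31 tested) rose for 9 and fell for 4 with the diet in WT male liver, where 21% of all genes were called (11.3% higher and 9.74% lower). The largest rises were those of Creb3l1, a transcription factor of collagen genes (1.95), Plod2, the lysyl hydroxylase of telopeptides (1.72), and Fkbp10 (1.66). The falls were led by Ppib, a prolyl isomerase (-0.79), Bmp1 (-0.58) and P4ha2 (-0.54). In KI against WT on the NASH diet 11 were lower, led by Fkbp10 (-1.87), Adamts2 (-1.62) and Sparc, a collagen-binding matrix protein (-1.61), and 4 higher, led by Colgalt2, a collagen galactosyltransferase (1.30). There 17.4% of all genes were lower and 19.6% higher. Collagen receptors (8 of 10 tested) rose for 5 and fell for none with the diet in WT, led by the kinase Ddr1 (2.74), Itga11 (2.35) and Mrc2 (2.07). Ddr1 varied widely in WT NASH (13.9 ± 14.4 CPM, SD, n = 4), against 2.07 ± 0.883 CPM in WT control (n = 3). Itga11 was low, with means of 0.685 CPM in WT NASH and 0.123 CPM in WT control. In the genotype contrast 3 were lower, led by Ddr1 (-2.67) and Mrc2 (-1.67), and 2 higher, Itga10 (1.08) and Itga1 (0.49).

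In female liver few chains passed the test, and Col4a1 and Col4a2 were called in more than 1 contrast. Col25a1, Col4a6, Col8a2 and Col9a3 had too few counts to be tested. With the diet in WT, 1 of 30 chains rose, Col4a2, against 0.0526% of all genes (0.0376% higher). The chains with an unadjusted p under 0.05 numbered 13, of which 12 were higher, against 1829 of all genes, and DESeq2 called 9 chains. The median log2 fold change was 0.47 over the chains and 0.00 over all genes. Col4a2 stood at 17.1, 25.4, 21.2 and 17.8 CPM in WT control, 35.1, 45.2, 55.5 and 35.4 in WT NASH, 28.1, 32.4, 34.8 and 38.9 in KI control and 23.4, 32, 35.4 and 30.7 in KI NASH. WT NASH lay above all WT controls, and KI control lay above them as well. The diet effect of Col4a2 in WT was a log2 fold change of 1.07 (SE 0.17, adjusted p = 0.039), and its call was lost in 9 of 16 refits that left out 1 library, with values of 0.92 to 1.19. Col4a1 stood at 31, 37.4, 36.4 and 34.5 CPM in WT control, 53.9, 63.8, 120 and 72.9 in WT NASH, 69.5, 54.5, 52.6 and 71.1 in KI control and 37.3, 47.8, 56.1 and 37.7 in KI NASH. Its groups showed the same order, with WT NASH apart from WT control (1.16, adjusted p = 0.057).

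On the control diet, 5 of 30 chains differed between the genotypes in female liver, against 7.57% of all genes (4.04% higher). At an unadjusted p under 0.05 were 11 chains and 3345 of all genes. Col4a1 was higher in KI by 0.83 (SE 0.21, adjusted p = 0.027) and Col4a2 by 0.72 (SE 0.17, adjusted p = 0.024). Col20a1 stood at 5.04, 6.28, 4.15 and 7.21 CPM in WT control, 3.28, 2.84, 5.96 and 5.54 in WT NASH, 11.5, 14.7, 15.2 and 14.3 in KI control and 9.9, 5.42, 9.77 and 9.63 in KI NASH, with KI control above every WT control (log2 fold change 1.29, SE 0.25, adjusted p = 0.0099), and was called in each refit without 1 library. Col17a1, known from the hemidesmosomes of epithelia, stood at 0.14, 0.0952, 0.0466 and 0.225 CPM in WT control, 0.216, 0.0507, 0.087 and 0.402 in WT NASH, 0.557, 0.819, 0.497 and 0.742 in KI control and 0.375, 0.226, 0.502 and 0.269 in KI NASH. It was low in all groups, without overlap between the controls (log2 fold change 2.31, SE 0.52, adjusted p = 0.018), and its call was lost without WT control replicate 3 (2.04). Col5a3 stood at 18.9, 12.8, 19.7 and 13.9 CPM in WT control, 21.3, 16, 9.79 and 11.9 in WT NASH, 10.4, 5.64, 6.21 and 7.36 in KI control and 7.98, 16.6, 13.4 and 7.69 in KI NASH. KI control lay below all WT controls (log2 fold change -1.15, SE 0.29, adjusted p = 0.028). The calls of Col4a1, Col4a2 and Col5a3 were each lost in 5 of 16 refits without 1 library, with values there of 0.76 to 0.85, 0.64 to 0.74 and -1.14 to -1.03. The 5 calls were 1 without WT control replicate 3, 2 without WT control replicate 1 or KI control replicate 4, and 3 without WT control replicate 4 or KI control replicate 3.

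The diet effect of the type IV pair differed between the genotypes in females. The interaction was a log2 fold change of -1.62 (SE 0.30, adjusted p = 0.012) for Col4a1 and a log2 fold change of -1.21 (SE 0.24, adjusted p = 0.017) for Col4a2, the chains called among 30 against 4.77% of all genes. These calls held in each refit that left out 1 library. At an unadjusted p under 0.05 stood 8 chains, all with a lower value, and 3039 of all genes. DESeq2 called 6 chains. Diet in KI called Col18a1 alone (log2 fold change -0.38, SE 0.11, adjusted p = 0.04), against 8.83% of all genes (4.21% higher and 4.63% lower), and this call was lost in 11 of 16 refits, with values of -0.41 to -0.33 over all 16. Col18a1 stood at 1220, 1230, 1220 and 1150 CPM in WT control, 1240, 1100, 1040 and 892 in WT NASH, 1490, 1490, 1330 and 1550 in KI control and 1170, 1100, 1040 and 1220 in KI NASH. KI control lay above all other groups. KI against WT on the NASH diet called 0 of 30 chains with edgeR, against 0.0901% of all genes (0.0676% higher), and 2 with DESeq2. At an unadjusted p under 0.05 were 15 chains, of which 11 were lower, and 1728 of all genes.

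The interstitial chains of female liver did not pass the test. Col1a1 stood at 3.55, 8.85, 2.56 and 3.02 CPM in WT control, 12.9, 24.1, 14.8 and 8.09 in WT NASH, 2.89, 4.77, 5.22 and 13.7 in KI control and 4.34, 7.77, 13.6 and 8.82 in KI NASH. WT NASH lay mostly above WT control, with an overlap through WT control replicate 2 (1.73, adjusted p = 0.15). Col1a2 stood at 8.45, 14.7, 6.99 and 8.61 CPM in WT control, 19.2, 30.7, 21.8 and 14 in WT NASH, 7.29, 8.24, 7.11 and 20.7 in KI control and 8.78, 10.8, 16 and 9.2 in KI NASH, and Col3a1 at 21.8, 34.8, 18.3 and 21.7 CPM in WT control, 56.4, 82.8, 69.9 and 29.9 in WT NASH, 14.6, 21.4, 15.2 and 46.2 in KI control and 24.8, 31.2, 46.5 and 27.5 in KI NASH. Both overlapped between WT control and WT NASH through the same control library, which was also highest in that group for Col5a2, and the diet effect of Col3a1 in WT was 1.31 (adjusted p = 0.15). Col5a1 stood at 12, 13.4, 11.9 and 16.5 CPM in WT control, 21.7, 23.8, 19.3 and 15 in WT NASH, 13.1, 11.8, 15.9 and 20.8 in KI control and 14.2, 16.2, 16.4 and 13.9 in KI NASH, and Col5a2 at 3.03, 13.1, 4.29 and 2.62 CPM in WT control, 4.49, 9.68, 9 and 4.96 in WT NASH, 3.06, 3.23, 3.58 and 4.22 in KI control and 2.89, 4.56, 5.2 and 4.14 in KI NASH. The groups of both overlapped.

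The type VI and associated chains of female liver are given for comparison. Col6a1 stood at 8.36, 17.3, 11.9 and 11.9 CPM in WT control, 15.5, 21.6, 17.3 and 11.3 in WT NASH, 11, 9.2, 10.9 and 17.6 in KI control and 8.51, 15, 14.5 and 11.5 in KI NASH, Col6a2 at 4.76, 9.85, 5.36 and 6.18 CPM in WT control, 10.2, 14.5, 9.74 and 7.78 in WT NASH, 7.51, 6.26, 5.62 and 11.3 in KI control and 4.93, 8.13, 9.82 and 8.07 in KI NASH, and Col6a3 at 7.94, 11.6, 10.2 and 12 CPM in WT control, 16, 24.2, 19.6 and 16.7 in WT NASH, 9.68, 14.2, 15.1 and 22.9 in KI control and 9.37, 12.1, 18.9 and 11.9 in KI NASH. WT NASH replicate 2 was the highest library of all 3. Col14a1 stood at 61.2, 75.1, 70.4 and 82.3 CPM in WT control, 119, 151, 116 and 107 in WT NASH, 74.6, 71.2, 64.9 and 116 in KI control and 70.5, 89.8, 97.8 and 63.6 in KI NASH, with KI control replicate 4 inside the WT NASH range. Col15a1 stood at 13, 11.8, 8.58 and 20.9 CPM in WT control, 25.8, 10.3, 13.2 and 28.9 in WT NASH, 4.34, 33.6, 16.3 and 20.5 in KI control and 9.69, 10.7, 22.9 and 20.1 in KI NASH. Its libraries ranged widely inside each group, and none of these 5 genes passed the test in any contrast of female liver.

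The sexes were compared in a joint fit of both liver tables, as the female minus the male effect. Male and female liver were deposited in separate tables, which cannot be told apart from sex. For KI against WT on the NASH diet, 5 of 34 chains differed, a share close to the 14% of all genes. Col1a1 (log2 fold change 2.06, SE 0.70, adjusted p = 0.049), Col3a1 (log2 fold change 1.94, SE 0.56, adjusted p = 0.021) and Col1a2 (log2 fold change 1.68, SE 0.53, adjusted p = 0.033) had a genotype effect that was less negative in females. Col27a1 (log2 fold change -1.92, SE 0.61, adjusted p = 0.036) and Col11a2 (log2 fold change -1.69, SE 0.44, adjusted p = 0.012) had one that was higher in males. On the scale of the joint fit, Col27a1 averaged 140 ± 15.9 CPM in male KI NASH and 40.5 ± 20 in male WT NASH, against 55.9 ± 22.4 and 61.3 ± 44.1 CPM in females (SD, n = 4 each). Col27a1 in female liver stood at 62.7, 62.4, 28.5 and 32.4 CPM in WT control, 23.9, 40.9, 57.1 and 125 in WT NASH, 120, 92.5, 130 and 36 in KI control and 45.3, 84.9, 60.3 and 33.1 in KI NASH on the within-sex scale, where both genotypes overlapped on each diet. Col11a2 in female liver stood at 2.61, 2.95, 1.3 and 2.07 CPM in WT control, 1.47, 2.18, 2.7 and 2.37 in WT NASH, 1.95, 3.18, 3.78 and 1.31 in KI control and 1.87, 1.35, 1.1 and 1.67 in KI NASH, with overlap as well. The sex difference of Col11a2 held in each of 31 refits without 1 library. That of Col1a1 was lost in 19, of Col27a1 in 10 and of Col1a2 in 8. That of Col3a1 was lost without female KI NASH replicate 3 (1.72), female WT NASH replicate 4 (1.72) or male WT NASH replicate 1 (1.47). Without female WT NASH replicate 4 the value of Col27a1 was -1.32, and the 5 calls were 1 without female KI NASH replicate 3 or male WT NASH replicate 1. For the diet in WT, edgeR called 0 of 34 chains, against 1.68% of all genes, and DESeq2 called 1 chain. At an unadjusted p under 0.05 were 10 chains and 2409 of all genes.

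**Figure D4:**
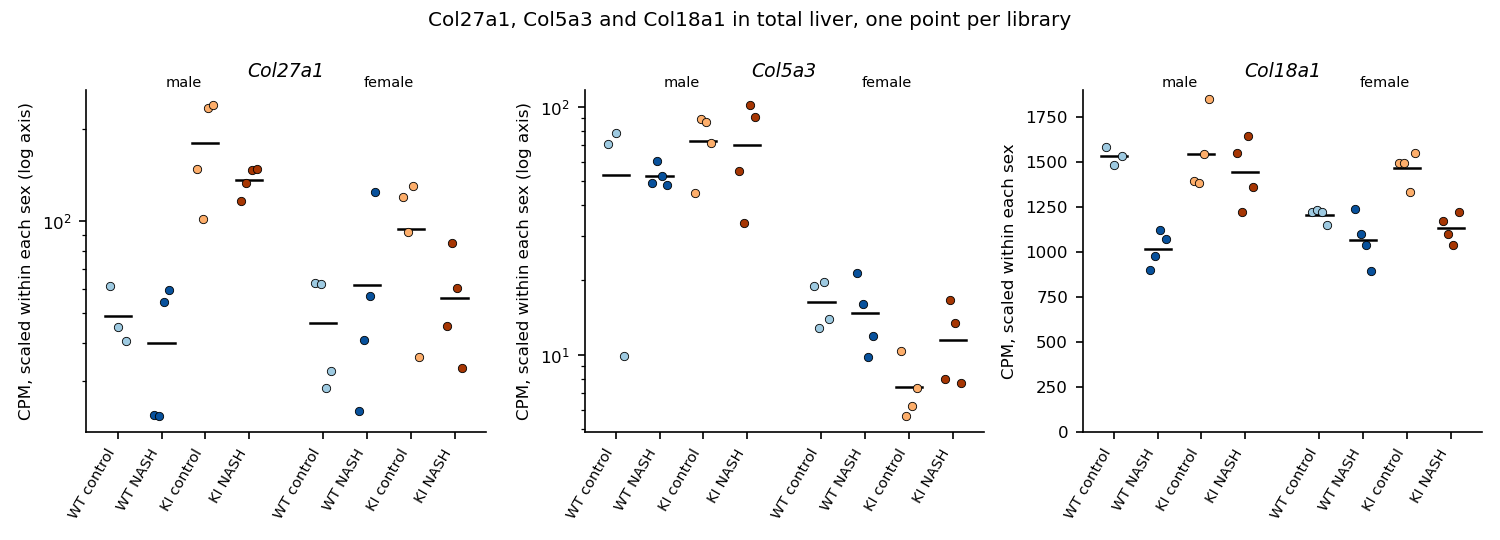
Levels of Col27a1 and Col5a3 (log axes) and of Col18a1 (linear axis from 0) in total liver as CPM scaled within each sex; each point is 1 library, the bar is the group mean, and colours mark the 4 groups. In males the KI and WT libraries of Col27a1 do not overlap, the low WT control point of Col5a3 at 9.88 CPM is the library whose sex genes contradict its label, and the WT NASH libraries of Col18a1 lie lowest.

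In sorted male macrophages the type IV pair rose with the diet in both genotypes, to 32.8 CPM per kb for Col4a1 and 21.4 for Col4a2 in KI NASH. Of 26 chains tested, 4 rose and none fell in WT, against 8.19% of all genes (5.36% higher and 2.83% lower): Col4a1, Col4a2, Col5a2 and Col13a1. In KI 14 rose and none fell, against 24% of all genes (15.1% higher and 8.94% lower). The median log2 fold change was 1.16 in WT and 1.77 in KI over the chains, and 0.01 over all genes in each. The other 8 kept chains (Col12a1, Col24a1, Col25a1, Col4a5, Col4a6, Col6a6, Col8a1 and Col8a2) had too few counts to be tested. By class, in KI 5 of 8 fibrillar, 4 of 6 basement membrane and 5 of 12 other chains rose. The interaction called 0 of 26 chains with edgeR and 0% of all genes, and DESeq2 called 1 chain. At an unadjusted p under 0.05 were 6 chains and 1595 of all genes, so the diet effects of the genotypes are not shown to differ. Levels are TMM-scaled CPM over the macrophages of 1 sex.

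Col4a1 stood at 31.7, 12.6, 26.1 and 25.1 CPM in WT control, 76.8, 71.5, 53.8, 270 and 175 in WT NASH, 67.3, 65.9, 62 and 65 in KI control and 134, 97.9, 349, 355 and 149 in KI NASH. Col4a2 stood at 21.2, 8.48, 15.8 and 14.1 CPM in WT control, 52.3, 42.6, 32.5, 171 and 117 in WT NASH, 40, 41.7, 37.8 and 39.8 in KI control and 89.3, 58.6, 236, 211 and 95.5 in KI NASH. WT control was the lowest group for both genes, without overlap with any other, and the KI control libraries lay close together. With the diet Col4a1 rose by 2.44 (SE 0.50, adjusted p = 0.015) in WT and by 1.74 (SE 0.48, adjusted p = 0.015) in KI on the log2 scale. The values of Col4a2 were 2.48 (SE 0.51, adjusted p = 0.015) and 1.80 (SE 0.49, adjusted p = 0.014). The ratio of Col4a1 to Col4a2 per kb stayed within 1.43 to 1.74 in all 18 male macrophage libraries. On the control diet KI minus WT was 1.44 for Col4a1 and 1.42 for Col4a2, which did not pass the test: edgeR called 0 of 26 chains there and 0% of all genes. At an unadjusted p under 0.05 were 3 chains and 862 of all genes, and DESeq2 called 0 chains.

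Col13a1, a membrane-spanning chain found at cell junctions, stood at 6.95, 1.74, 6.55 and 3.74 CPM in WT control, 8.74, 12, 12.1, 26.9 and 54.9 in WT NASH, 18.6, 15, 17.7 and 22.6 in KI control and 17.4, 8.65, 32.7, 42.5 and 37.8 in KI NASH. All WT NASH libraries lay above WT control, and it rose with the diet in WT (log2 fold change 2.28, SE 0.58, adjusted p = 0.027). That call was lost without WT control replicate 2 (2.03), WT control replicate 3 (2.51), WT control replicate 4 (2.18), WT NASH replicate 4 (2.24) or WT NASH replicate 5 (1.66), of which WT control replicate 4 is the library with contradicting sex genes. Col5a2 stood at 0.547, 0.137, 0.831 and 0.855 CPM in WT control, 4.19, 2.9, 0.953, 6.81 and 3.7 in WT NASH, 1.72, 0.823, 0.734 and 0.536 in KI control and 6.16, 6.18, 6.51, 8.72 and 2.48 in KI NASH. Neither genotype's NASH group overlapped its control, and the diet effects were 2.65 in WT (adjusted p = 0.016) and 2.65 in KI (adjusted p = 0.003). Without WT control replicate 2 none of the 4 WT calls was left, with values of 2.25 for Col4a1, 2.31 for Col4a2 and 2.34 for Col5a2. Without WT control replicate 4, whose sex genes go against the label, 3 were left, and the 14 calls in KI remained 14 in number.

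Markers of other liver cells moved beside these chains. The summed markers of sinusoidal endothelial cells, which are known to make type IV collagen, stood at 633 to 1170 CPM in control and 1210 to 3110 CPM in NASH libraries of WT. In KI they stood at 1400 to 1650 and 1030 to 3360 CPM. Of these 8 markers 6 rose with the diet in WT and 0 in KI. The summed markers of activated stellate cells stood at 12.2 to 17.5, 6.67 to 23.3, 7.2 to 14.7 and 10.1 to 31.3 CPM in the same order of groups. Of these 7, 0 rose in WT and 4 in KI. The summed hepatocyte markers stood at 121 to 509, 65.7 to 318, 183 to 295 and 456 to 2780 CPM, and 0 of 8 rose in WT and 8 of 8 in KI. In KI 5 of 8 Kupffer cell markers fell. The part of these cells in the collagen values was not tested.

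The other chains that rose in KI male macrophages included types I, III and VI. Col1a1 stood at 0.383, 0.504, 0.185 and 0.855 CPM in WT control, 4.59, 1.84, 0.392, 11.1 and 1.5 in WT NASH, 0.458, 0.0588, 0.229 and 0.0595 in KI control and 12.4, 14.4, 13.5, 17.9 and 0.87 in KI NASH. KI NASH lay above KI control in every library, with replicate 5 lowest, and the WT groups overlapped. The diet effect of Col1a1 in KI was a log2 fold change of 5.81 (SE 1.06, adjusted p = 0.0017), with 6.50 without KI control replicate 1, and in WT it was 3.02 (adjusted p = 0.051). Col1a2 stood at 2.57, 1.24, 1.34 and 1.82 CPM in WT control, 5.94, 3.26, 0.729, 12.2 and 2.56 in WT NASH, 0.687, 1.47, 1.88 and 0.714 in KI control and 12.5, 13.9, 16, 18.3 and 2.22 in KI NASH. In KI its groups did not overlap (log2 fold change 3.38, SE 0.70, adjusted p = 0.0031). Col3a1 stood at 6.9, 2.52, 2.22 and 5.72 CPM in WT control, 19.4, 8.11, 1.23, 33.6 and 5.12 in WT NASH, 2.35, 5.17, 3.21 and 1.61 in KI control and 27.1, 30.7, 27.6, 38.9 and 3.44 in KI NASH. KI NASH replicate 5 fell inside the control range, and the diet effect in KI was a log2 fold change of 3.05 (SE 0.80, adjusted p = 0.011). Col5a1 stood at 2.41, 1.19, 1.71 and 5.34 CPM in WT control, 2.8, 1.9, 0.841, 6.08 and 2.48 in WT NASH, 0.63, 3.29, 2.57 and 0.714 in KI control and 3.95, 4.9, 6.98, 10.5 and 1.39 in KI NASH, with overlap in both genotypes and no call.

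Col6a1 stood at 3.07, 0.641, 1.11 and 1.92 CPM in WT control, 2.75, 0.948, 0.504, 6.67 and 1.99 in WT NASH, 0.516, 2.06, 1.05 and 0.774 in KI control and 4.26, 4.32, 8.3, 11.2 and 2.7 in KI NASH, Col6a2 at 1.59, 0.596, 0.831 and 1.28 CPM in WT control, 1.6, 0.77, 0.168, 4.07 and 1.1 in WT NASH, 0.344, 0.823, 0.596 and 0.357 in KI control and 2.62, 4.18, 4.88, 7.63 and 1.57 in KI NASH, and Col6a3 at 1.53, 0.825, 0.969 and 1.92 CPM in WT control, 2.75, 1.78, 1.06, 9.46 and 8.46 in WT NASH, 0.172, 0.588, 0.734 and 0.357 in KI control and 7.23, 6.46, 12.5, 21.2 and 5.31 in KI NASH. In KI none of the 3 overlapped between the diets. They rose by 2.48 (adjusted p = 0.015), 2.96 (adjusted p = 0.0055) and 4.47 (adjusted p = 0.00095) on the log2 scale. Col6a5 stood at 0, 0, 0.0462 and 0.16 CPM in WT control, 0.0998, 0.118, 0, 0.685 and 0.163 in WT NASH, 0, 0, 0.0459 and 0 in KI control and 0.872, 0.19, 0.788, 0.568 and 0.478 in KI NASH, with a single KI control library above 0. It was called in KI (adjusted p = 0.0064), but with so few control reads no fold is given. Col16a1 stood at 0.766, 0.183, 0.415 and 0.855 CPM in WT control, 0.549, 0.296, 0.448, 2.38 and 1.42 in WT NASH, 0.286, 0.647, 0.642 and 0.179 in KI control and 1.69, 1.14, 1.73, 3.74 and 1.17 in KI NASH. It rose in KI (log2 fold change 2.08, SE 0.63, adjusted p = 0.025), a call that was lost without KI control replicate 1 (1.92), KI control replicate 4 (1.83) or KI NASH replicate 4 (1.67). Col14a1 stood at 28.4, 11.4, 10.9 and 28 CPM in WT control, 12.4, 10, 7.29, 41.8 and 14 in WT NASH, 11.6, 28.5, 15.5 and 10.4 in KI control and 22, 22.8, 55.1, 60.1 and 24.5 in KI NASH, and its groups overlapped without a call.

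Col15a1 stood at 0.493, 1.47, 0.554 and 0.801 CPM in WT control, 0.849, 2.31, 0.841, 4.43 and 0.976 in WT NASH, 0.458, 0.705, 0.504 and 0.298 in KI control and 9.8, 8.08, 6.35, 5.21 and 1.83 in KI NASH. KI NASH lay above every KI control (log2 fold change 3.65, SE 0.61, adjusted p = 0.0012). Col18a1 stood at 2.08, 6.87, 1.62 and 6.84 CPM in WT control, 4.64, 1.24, 2.58, 6.49 and 1.54 in WT NASH, 3.72, 3.59, 2.52 and 2.38 in KI control and 10.6, 10.7, 17.5, 55 and 10.3 in KI NASH. KI NASH lay above all other groups, and replicate 4 stood far above the other KI NASH libraries. Col18a1 rose with the diet in KI (log2 fold change 2.77, SE 0.64, adjusted p = 0.0058, 1.99 without KI NASH replicate 4) and was higher in KI than in WT on the NASH diet (log2 fold change 2.65, SE 0.58, adjusted p = 0.022). Col5a3 stood at 0.109, 0.0916, 0.0462 and 0.214 CPM in WT control, 0.499, 0.118, 0.672, 0.502 and 0.163 in WT NASH, 0.115, 0.0588, 0.0459 and 0.119 in KI control and 1.28, 1.43, 2.21, 5.07 and 0.348 in KI NASH. In KI its groups did not overlap (log2 fold change 4.54, SE 0.78, adjusted p = 0.0013, 3.87 without KI NASH replicate 4), and on the NASH diet KI was higher than WT (log2 fold change 2.39, SE 0.59, adjusted p = 0.035) with 1 KI library inside the WT range. These were the chains called among 26 in the genotype contrast on the NASH diet, against 3.13% of all genes. At an unadjusted p under 0.05 were 8 chains and 2203 of all genes, and DESeq2 called 3 chains. The genotype call of Col18a1 was lost without KI NASH replicate 4 (1.87), WT NASH replicate 1 (2.78), WT NASH replicate 2 (2.42), WT NASH replicate 3 (2.57) or WT NASH replicate 5 (2.47), and that of Col5a3 without KI NASH replicate 3 (2.34), KI NASH replicate 4 (1.72), WT NASH replicate 1 (2.47), WT NASH replicate 2 (2.15) or WT NASH replicate 5 (2.18). The 2 calls were 8 without WT NASH replicate 4. They were 1 without replicate 3 of WT NASH or replicate 3 of KI NASH, and 0 without replicate 1, 2 or 5 of WT NASH or without KI NASH replicate 4. KI NASH replicate 4, the highest library of both genes, also had the highest summed hepatocyte markers, 2780 CPM, and in this contrast 7 of 8 hepatocyte markers were higher in KI. Both genes were among those with the largest excess of liver over macrophages above, and the part of liver cell RNA in these values was not tested.

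**Figure D5:**
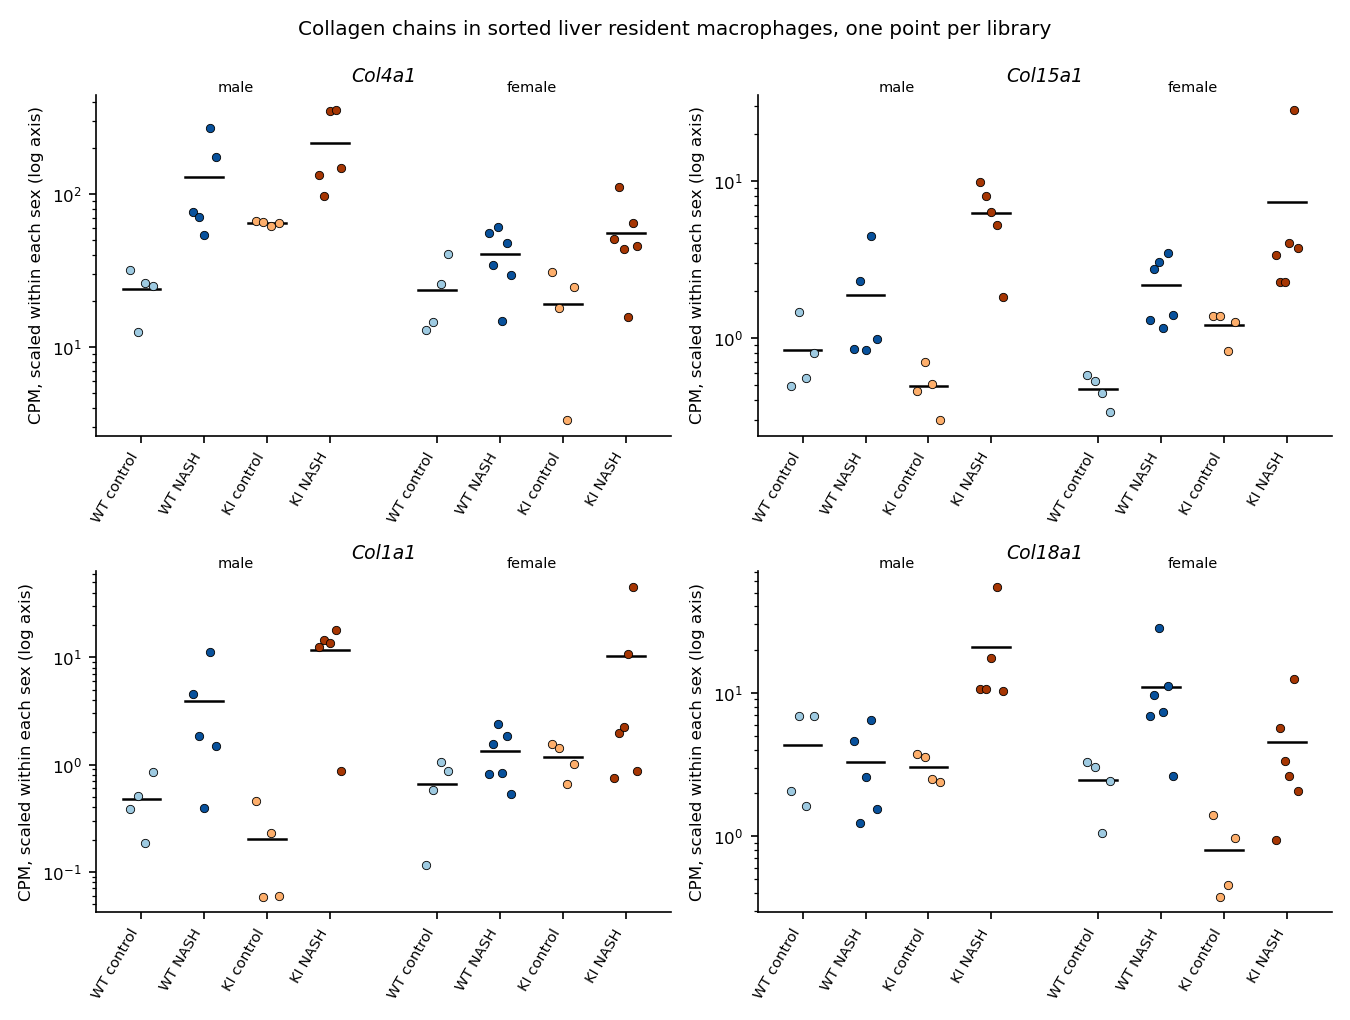
Levels of Col4a1, Col15a1, Col1a1 and Col18a1 in sorted liver resident macrophages as CPM scaled within each sex, on log axes; each point is 1 library, the bar is the group mean, and colours mark the 4 groups of genotype and diet. In males WT control is the lowest group of Col4a1, and in females 1 KI NASH library stands at 45.7 CPM for Col1a1 and 28.3 CPM for Col15a1, far above the others.

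Collagen synthesis genes (26 of 31 tested) rose for 5 in WT and 13 in KI male macrophages with the diet, and none fell, where 5.36% of all genes rose in WT and 15.1% in KI. In KI the largest rises were those of Bmp1 (3.23), Adamts2 (2.75) and Plod2 (2.75), and in WT those of P3h2, a prolyl 3-hydroxylase (2.65), Serpinh1, the collagen chaperone HSP47 (1.82), and Sparc (1.73). The KI control means of Bmp1, Adamts2 and Plod2 were 0.306, 0.422 and 0.189 CPM, so their folds start from few reads. P3h2 averaged 0.545 CPM in WT control. Collagen receptors (7 of 10 tested) rose for 2 in WT, Itga1 (2.34) and Ddr1 (2.29), and for 3 in KI, Ddr1 (3.40), Mrc2 (3.15) and Itga1 (1.94). Ddr1 averaged 0.152 CPM in WT control and 0.126 CPM in KI control, and Mrc2 0.13 CPM in KI control, again few reads. The part of other liver cells in these values was not tested.

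In sorted female macrophages few chains passed the test. With the diet in WT, 2 of 21 chains rose and none fell, a share close to that of all genes, of which 12.9% were called (8.44% higher and 4.42% lower). They were Col15a1 and Col18a1. The other 13 kept chains, among them Col5a3, Col12a1, Col6a5 and Col4a3 to Col4a6, had too few counts to be tested. Col15a1 stood at 0.579, 0.526, 0.443 and 0.337 CPM in WT control, 1.15 to 3.47 (median 2.06) in WT NASH, 1.38, 1.37, 0.817 and 1.26 in KI control and 2.26 to 28.3 (median 3.56) in KI NASH. All NASH libraries of WT lay above WT control (log2 fold change 2.19, SE 0.72, adjusted p = 0.05, just under the threshold before rounding). Col18a1 stood at 3.28, 3.04, 1.06 and 2.41 CPM in WT control, 2.64 to 28.1 (median 8.43) in WT NASH, 1.41, 0.379, 0.459 and 0.97 in KI control and 0.944 to 12.5 (median 2.98) in KI NASH. WT NASH overlapped WT control, and the gene rose by 2.16 on the log2 scale (SE 0.66, adjusted p = 0.039). The call of Col15a1 was lost in 15 and that of Col18a1 in 6 of 20 refits without 1 library. The summed hepatocyte markers stood at 122 to 369 CPM in WT control and 228 to 1790 CPM in WT NASH, 4 of 8 were called higher, and their part was not tested.

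With the diet in KI, Col15a1 was the 1 chain called among 21 (log2 fold change 2.59, SE 0.67, adjusted p = 0.047), against 2.31% of all genes. Without KI NASH replicate 5 its value was 1.38, and the call was lost in 15 of 20 refits without 1 library. The median log2 fold change over the chains was 1.61, against -0.01 over all genes, and DESeq2 called 11 chains. At an unadjusted p under 0.05 were 14 chains, all higher, and 2511 of all genes. Col1a1 stood at 0.116, 0.585, 1.06 and 0.868 CPM in WT control, 0.528 to 2.38 (median 1.19) in WT NASH, 1.57, 1.42, 0.664 and 1.01 in KI control and 0.745 to 45.7 (median 2.11) in KI NASH, Col1a2 at 1.31, 1.52, 6.56 and 4.29 CPM in WT control, 0.912 to 2.89 (median 1.85) in WT NASH, 1.53, 2.56, 1.12 and 1.64 in KI control and 1.89 to 36.7 (median 3.35) in KI NASH, and Col3a1 at 3.16, 4.5, 11.8 and 9.55 CPM in WT control, 2.74 to 10.8 (median 5.45) in WT NASH, 2.4, 4.41, 2.09 and 4.38 in KI control and 4.22 to 81.1 (median 8.34) in KI NASH. KI NASH replicate 5 held the maximum of all 3 and replicate 4 came next, while the other 4 KI NASH libraries lay at 2.26 CPM or lower for Col1a1. In KI NASH replicate 5 the summed activated stellate cell markers stood at 33.3 CPM, the highest of the group, which began at 7, and the summed Kupffer cell markers at 16700 CPM. Of 10 stellate cell markers 4 rose in this contrast, and their part was not tested.

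The type IV pair of female macrophages overlapped between all groups. Col4a1 stood at 12.9, 14.6, 25.7 and 40.8 CPM in WT control, 14.8 to 61.3 (median 41.3) in WT NASH, 30.9, 18.1, 3.32 and 24.6 in KI control and 15.6 to 112 (median 48.4) in KI NASH. Col4a2 stood at 6.99, 8.83, 14.5 and 24.9 CPM in WT control, 8.62 to 39.8 (median 28.9) in WT NASH, 23, 12.8, 2.04 and 14.9 in KI control and 9.3 to 67.3 (median 30.8) in KI NASH. KI control replicate 3 was the lowest and KI NASH replicate 2 the highest library for both genes, while their ratio per kb lay between 1.3 and 1.79 over the 20 libraries. Col5a1 stood at 1.81, 2.4, 8.47 and 7.62 CPM in WT control, 1.1 to 3.44 (median 2.19) in WT NASH, 1.49, 1.42, 1.17 and 1.81 in KI control and 0.695 to 9.73 (median 3.4) in KI NASH, Col5a2 at 0.617, 0.585, 1.91 and 1.01 CPM in WT control, 0.354 to 2.89 (median 1.58) in WT NASH, 1.1, 0.332, 0.408 and 1.05 in KI control and 0.878 to 9.19 (median 2.44) in KI NASH, and Col5a3 at 0.0386, 0.175, 0.222 and 0.145 CPM in WT control, 0.177 to 1.23 (median 0.376) in WT NASH, 0.0393, 0.142, 0 and 0.169 in KI control and 0.0922 to 1.57 (median 0.165) in KI NASH. KI NASH replicate 5 was the highest library of all 3. Col5a1 and Col5a2 were not called, and Col5a3 was too low to be tested.

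Col6a1 stood at 1.23, 1.23, 4.97 and 3.13 CPM in WT control, 0.624 to 2.08 (median 1.35) in WT NASH, 1.49, 1.23, 0.97 and 0.928 in KI control and 0.894 to 13.4 (median 1.99) in KI NASH, Col6a2 at 0.54, 0.526, 2 and 1.98 CPM in WT control, 0.384 to 1.32 (median 0.933) in WT NASH, 0.865, 1.14, 0.255 and 0.928 in KI control and 0.596 to 12.3 (median 1.26) in KI NASH, and Col6a3 at 0.849, 0.935, 4.43 and 3.09 CPM in WT control, 0.619 to 2.12 (median 1.33) in WT NASH, 2.87, 1.99, 0.766 and 1.43 in KI control and 1.19 to 43.9 (median 3.04) in KI NASH. Their highest KI NASH values were all those of replicate 5. Col14a1, a chain known from stellate cells and fibroblasts, stood at 21.5, 15.1, 53.3 and 32.1 CPM in WT control, 8.02 to 22.2 (median 21) in WT NASH, 8.1, 8.3, 5.1 and 9.53 in KI control and 8.15 to 41 (median 20.2) in KI NASH. KI control lay below all WT controls (log2 fold change -1.97, SE 0.46, adjusted p = 0.021), the 1 chain called among 21 on the control diet against 4.64% of all genes. The call was lost without WT control replicate 3 (-1.56), KI control replicate 3 (-1.82) or either of KI control replicates 1 and 2 (adjusted p = 0.051 and 0.055). In the same contrast 7 of 10 stellate cell markers were lower in KI, with sums of 286 to 483 CPM in WT control and 181 to 206 CPM in KI control, and their part was not tested. KI against WT on the NASH diet called 0 of 21 chains with edgeR, against 0.561% of all genes, and 5 with DESeq2. At an unadjusted p under 0.05 were 9 chains and 2377 of all genes. The interaction called 0 of 21 chains with edgeR, against 0.288% of all genes, and 2 with DESeq2. At an unadjusted p under 0.05 were 8 chains and 1178 of all genes.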

How the data were processed

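RNA-seq of poly(A) RNA was made from total liver and from sorted liver resident macrophages. Kits were illustra RNAspin for liver and miRNeasy micro for macrophages, and libraries were TruSeq Stranded mRNA, per the labels' protocols. The authors deposited raw counts per gene symbol in 3 tables (female liver 24982, macrophages 24982 and male liver 23839 symbols). The build was mm10, per the submitters' processing notes. For aligner, counter, annotation and strand the entry is: not given in the sources used here.

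Each tissue and sex was fitted on all genes of its 4 groups with edgeR 4.0.16 (R 4.3.3), with TMM scaling, filterByExpr (minimum count 10, minimum total 15), the quasi-likelihood test and Benjamini-Hochberg adjustment over all genes tested. Calls have an adjusted p under 0.05. Shares of all genes are those of edgeR calls. At an unadjusted p under 0.05 the number of all genes is given instead, and for DESeq2 calls neither is given. Joint fits on the 23732 shared symbols compared sexes and tissues. All adjusted p-values, fold changes and SEs come from these fits. The test was run on simulated data with the same spread for all genes and no deviant library. That check does not cover calls that rest on single libraries. Male liver WT control replicates 3 and 4 had a mean chi-square per gene of 0.06711 over genes with a summed count of 20 to 200, against 2.053 to 11.92 in 121 other pairs of libraries of a group, and their rounded mean was used. Lengths for CPM per kb are exonic lengths of GENCODE vM21. Alternatives were DESeq2 1.42.0 with its own size factors, no filter on low counts, only both groups of a contrast, a replicate block, the doubled library as 2, leaving out both libraries with contradicting sex genes, and leaving out each library.

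The chains, lists and tests were chosen with earlier results of these data known. Every symbol is named, and values in every library are given for 14 chains of types I, III, IV, V, VI, XIV, XV and XVIII and for up to 3 further called chains with the largest change in a comparison, with groups of 6 as the lowest, median and highest. Of the fixed lists of synthesis, receptor and marker genes, at most the 3 largest rises and falls are named.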

Additional observations from a re-analysis of the deposited data

Results flagged for a closer look

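In 15 of 210 groups of values, for 14 genes over the groups of 4 to 6 libraries, 1 library lay far from the others. Chance alone gives about 1 in 20 such groups for independent values with a normal spread. Genes of the same library are not independent and the spread of CPM was not checked, so this rate may not hold here. Of the 15 flagged groups, 6 belong to female macrophage KI NASH replicate 5, with 45.7 CPM for Col1a1 (next 10.7), 36.7 for Col1a2 (next 9.54), 81.1 for Col3a1 (next 17), 28.3 for Col15a1 (next 4.03), 1.57 for Col5a3 (next 0.309) and 43.9 for Col6a3 (next 14.9). Female macrophage WT NASH replicate 3 stood at 28.1 CPM for Col18a1 (next 11.1) and 1.23 for Col5a3 (next 0.473). In male macrophages KI NASH replicate 4 stood at 55 CPM for Col18a1 (next 17.5) and WT NASH replicate 4 at 41.8 for Col14a1 (next 14).

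In liver, male KI control replicate 4 stood at 22.3 CPM for Col15a1 (next 10.1) and female KI control replicate 4 at 20.7 for Col1a2 (next 8.24). Female WT control replicate 2 stood at 8.85 CPM for Col1a1 (next 3.55) and 13.1 for Col5a2 (next 4.29). Female WT control replicate 4 was low for Col18a1, with 1150 CPM (next 1220).

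Effects of the same contrast differed between groups by a test of the difference itself in 8 cases (edgeR's quasi-likelihood test, Benjamini-Hochberg adjusted). The diet effect differed between the genotypes for Col3a1 in male liver (-2.71, adjusted p = 0.046) and for Col4a1 (-1.62, adjusted p = 0.012) and Col4a2 (-1.21, adjusted p = 0.017) in female liver. The genotype effect on the NASH diet differed between the sexes for Col11a2 (-1.69, adjusted p = 0.012), Col1a1 (2.06, adjusted p = 0.049), Col1a2 (1.68, adjusted p = 0.033), Col27a1 (-1.92, adjusted p = 0.036) and Col3a1 (1.94, adjusted p = 0.021). In this sex difference the share of chains called was close to that of all genes, and the shares of each contrast are given above. Both calls of Col3a1 and those of Col1a1, Col1a2 and Col27a1 were lost in some refits without 1 library.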

How the results depend on the processing

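Over the settings other than leaving out 1 library, 726 values of named called genes kept their call, 42 lost it and 0 reversed, and 99 counts of called chains stayed within 1.5 times while 29 moved. Over refits without 1 library the numbers were 3051, 256 and 0 for genes and 370 and 106 for counts. The cause of the moves was not tested.

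DESeq2 called 6 chains in the male and 6 in the female liver interaction, 9 for diet in WT and 2 for genotype on the NASH diet in female liver, 1 for the sex difference of diet, 1 in the male macrophage interaction, and 11 for diet in KI, 2 for genotype on the control diet, 5 for genotype on the NASH diet and 2 for the interaction in female macrophages. Without a filter on low counts, female liver had 2 calls for diet in WT and 0 for diet in KI, and female macrophages 1 and 0. With only both groups of the contrast, calls numbered 10 for diet in WT male liver, 0 for diet in WT and 0 for diet in KI female liver, 0 for diet in WT and 0 for genotype on the NASH diet in male macrophages, and 0 for diet in KI and 2 for genotype on the control diet in female macrophages.

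Same-numbered libraries did not deviate together as a whole in any diet or genotype comparison within a tissue and sex, so replicate numbers were used only as names. So few pairs per comparison cannot show that no pairing exists, and libraries of liver and macrophages were not compared in this way. With a replicate block, calls numbered 0 in the male liver interaction, 0 for diet in KI female liver, 3 for the sex difference of genotype on the NASH diet, and 1 for diet in WT and 0 for diet in KI in female macrophages. The male liver interaction had 3 calls without both libraries with contradicting sex genes and 2 with the doubled library as 2 libraries, and the sex difference of diet had 1 without those libraries.

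Leaving out 1 library at a time, calls in male liver ranged from 9 to 17 for diet in WT, 0 to 0 for diet in KI, 0 to 1 and 14 to 19 for genotype on the control and NASH diet, and 0 to 3 for the interaction. The female liver ranges were 0 to 2 and 0 to 1 for diet in WT and KI, 1 to 7 and 0 to 0 for genotype, and 2 to 3 for the interaction. Male macrophages had 0 to 6 and 12 to 16 for diet, 0 to 0 and 0 to 8 for genotype, and 0 to 0 for the interaction. Female macrophages had 0 to 3 and 0 to 4 for diet, 0 to 2 and 0 to 4 for genotype, and 0 to 1 for the interaction. The sex differences ranged from 0 to 1 (diet) and 1 to 7 (genotype), and the tissue differences from 28 to 30 in males and 25 to 31 in females. In male WT control macrophages Col6a6 and Col8a2 averaged 0.0102 and 0.0221 CPM, about the level of single reads.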

Other observations

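Col5a3 levels in liver followed the sex label, a comparison chosen after the values were seen and given with no test. Male and female liver were deposited in separate tables, and the exception below lies in the male one. On the joint scale of both liver tables, the male libraries stood at 34.8 to 103 CPM and the female libraries at 5.6 to 21.4 CPM. The exception was the male-labelled WT control library whose sex genes go against the label, with 10.2 CPM. Its 2 deposited versions held 146 Col5a3 reads of 11245097 (13 CPM) and 167 of 18765036 (8.9 CPM).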
